A study of Mus musculus with 30 samples.

Results

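The genes described here are 9 regulators of the G1 phase of the cell cycle, namely the cyclin-dependent kinase (CDK) inhibitors Cdkn1a, Cdkn1b, Cdkn1c, Cdkn2a, Cdkn2b and Cdkn2c, the D cyclin Ccnd1, the tumor suppressor Trp53 and the p53-induced cyclin Ccng1. They were chosen by name, and each was looked up by its Ensembl identifier among the 39676 genes of the count table. A row was found for 8 of the 9, and Cdkn2b was not analysed here. Of these 8 genes, 7 averaged 10 counts or more over the tumors, the filter used, and were tested within a set of 15926 genes, and Cdkn2a did not pass it.

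Bulk RNA-seq counts came from 30 whole tumors, 10 each of B16-GFP, B16-IFNA4 and B16-IFNA9, taken on day 8. The tumors grew from B16-F10 cells, a pigmented mouse melanoma line of C57BL/6 origin, in female C57BL/6 mice that were usually 8 to 12 weeks old. All 3 cell lines carried retroviral vectors for the herpes simplex virus glycoprotein gB with cyan fluorescent protein and for luciferase with puromycin resistance. They differed in another vector, which held enhanced GFP alone (B16-GFP), or GFP after murine IFNα4 (B16-IFNA4) or IFNα9 (B16-IFNA9), so the tumor cells themselves secreted 1 interferon subtype under a viral promoter, from lines sorted for the fluorescent proteins. Each sample is a tumor with the host's immune and stromal cells in it, and for every result below fewer cells of a type and less RNA per cell cannot be told apart. The comparisons ask how these regulators differ between tumors with and without type I interferon, and between the 2 subtypes.

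D cyclins such as cyclin D1 activate CDK4 and CDK6 in G1, and the active kinases phosphorylate the retinoblastoma protein, which releases E2F factors and lets the cell enter S phase. The INK4 inhibitors (Cdkn2a, Cdkn2b, Cdkn2c) bind CDK4 and CDK6 alone, while the Cip/Kip inhibitors (Cdkn1a or p21, Cdkn1b or p27, Cdkn1c or p57) also bind the cyclin complexes of CDK2. The p53 protein is controlled mainly through its degradation by Mdm2, and when it accumulates it switches on p21, cyclin G1 and Mdm2 itself; type I interferon is known to slow the division of many cell types.

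Total counts were alike in all tumors, at 14598517 to 19788383 (median 16712970.5). The factors by which TMM scaled these totals ran from 0.768 to 1.097, with the lowest total and the lowest factor in B16-GFP tumor 7. Ifna4 had 81 to 188 counts in every B16-IFNA4 tumor and 0 in all other tumors, and Ifna9 had 55 to 148 counts in every B16-IFNA9 tumor and 0 in all others, as the labels say. Tyr, which encodes the pigment enzyme tyrosinase, was present in all types at 767 ± 336 CPM in B16-GFP, 324 ± 65.9 CPM in B16-IFNA4 and 392 ± 114 CPM in B16-IFNA9 tumors (CPM, the counts scaled to equal depth by TMM, ± SD, n = 10). The other defining melanocyte genes Pmel, Dct and Mlana were not analysed here. B16-GFP tumor 7 stood apart from its type, with 30866 CPM summed over 6 melanocyte markers against 10557 to 18074 in the other 9 and with 177 CPM summed over 6 leukocyte markers against 313 to 625, and member results whose call or sign changed without this tumor are also given without it, while pathway genes and their lists are given with it.

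The 2 members best known as direct p53 targets are shown by their promoters, because both carry a match to the p53 response element in the 250 bases before to the 50 bases after an annotated start. The sequences are from RefSeq on GRCm38.p6, read on the gene's strand, with the match in capitals. For Cdkn1a the window is chr17:29090729-29091028 on the plus strand, and the match lies 51 to 32 bases before this start, while the window of another annotated start of Cdkn1a, chr17:29093519-29093818, held no such match. For Ccng1 the window is chr11:40755237-40755536 on the minus strand, and the match lies 195 to 176 bases before the start.
Cdkn1a: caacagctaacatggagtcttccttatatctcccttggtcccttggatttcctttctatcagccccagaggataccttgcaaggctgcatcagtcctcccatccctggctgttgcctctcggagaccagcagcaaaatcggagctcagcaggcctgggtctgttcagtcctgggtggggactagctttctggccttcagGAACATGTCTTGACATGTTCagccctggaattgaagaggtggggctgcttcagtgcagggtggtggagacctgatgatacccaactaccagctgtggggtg
Ccng1: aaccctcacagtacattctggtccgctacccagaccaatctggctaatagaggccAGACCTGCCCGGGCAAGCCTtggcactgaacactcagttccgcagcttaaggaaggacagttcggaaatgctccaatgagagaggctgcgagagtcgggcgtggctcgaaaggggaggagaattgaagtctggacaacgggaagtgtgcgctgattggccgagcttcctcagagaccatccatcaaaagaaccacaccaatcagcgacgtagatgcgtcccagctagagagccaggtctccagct
Each match is a p53 site of 20 bases with 1 mismatch and none at the C and G of each core, and such a match was found in 36 of the 32851 promoters searched (0.11%). Of the 9 members, 7 had at least 1 window in the promoter table, which gave 10 windows in all, and Cdkn1c and Ccnd1 had none. In these windows the interferon-stimulated response element core GAAANNGAAA and the STAT element TTCNNNGAA were not found on either strand, while 3.44% and 8.3% of all promoters held them. The GC box GGGCGG, found in 35.7% of all promoters, was present in the windows of Cdkn1a, Cdkn1b, Cdkn2a, Cdkn2b and Cdkn2c. A match is a description of the letters, not proof of a site in use, and the motifs were picked after the sequences had been seen.

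Among the members, Cdkn1a and Ccng1 were the most abundant per exon length in every tumor type, and Cdkn2a was almost absent. Over all 30 tumors the mean level per kilobase of exons was 94.0 CPM for Cdkn1a and 87.1 CPM for Ccng1. Cdkn1b and Ccnd1 followed at 31.5 and 31.4 CPM per kilobase, then Trp53 at 19.6, Cdkn2c at 11.6, Cdkn1c at 2.62 and Cdkn2a at 0.0834. The order of Cdkn1a and Ccng1 did not exceed the spread between tumors, since Ccng1 was above Cdkn1a in 3 of 10 B16-GFP tumors and below it in 7 of 10 B16-IFNA4 and 8 of 10 B16-IFNA9 tumors. Cdkn1b and Ccnd1 were likewise not separated in B16-GFP tumors, where Cdkn1b was higher in 6 of 10, or in B16-IFNA9 tumors, where it was higher in 7 of 10, whereas Ccnd1 was higher in 10 of 10 B16-IFNA4 tumors. The steps from Cdkn2c to Cdkn1c and from Cdkn1c to Cdkn2a held in every tumor of every type without overlapping ranges.

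**Figure D1:**
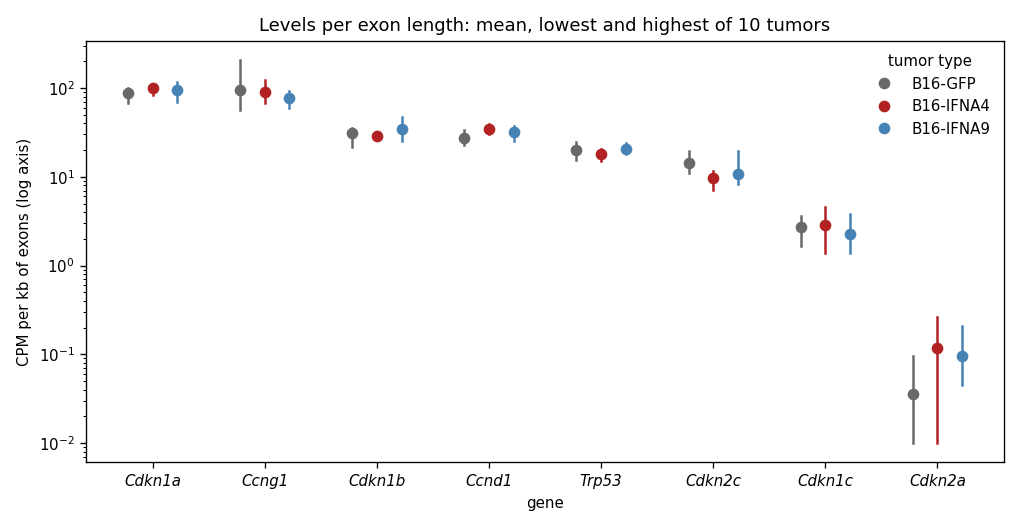
Level of the 8 members with a row, in CPM per kilobase of exons on a log axis, for the 3 tumor types; points are means and lines run from the lowest to the highest of 10 tumors, and a line that would reach 0 is drawn from 0.01. Cdkn1a and Ccng1 have means of 77.6 to 99.7 CPM per kilobase and Cdkn2a is the lowest in every type.

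Of the Cip/Kip inhibitors, Cdkn1a was slightly higher in B16-IFNA4 than in B16-GFP tumors, and neither Cdkn1b nor Cdkn1c passed the test in any comparison. Cdkn1a (ENSMUSG00000023067.13, chr17:29090976-29100727, plus strand, GENCODE M21 on GRCm38 as for all genes here) encodes p21, which halts the cycle downstream of p53. Its lowest, median and highest levels were 242, 317 and 354 CPM in B16-GFP, 295, 360.1 and 397 CPM in B16-IFNA4 and 249, 331 and 419 CPM in B16-IFNA9 tumors. The ranges overlapped throughout, with 6 of 10 B16-IFNA4 tumors above every B16-GFP tumor. The log2 fold change of B16-IFNA4 against B16-GFP was 0.19 (SE 0.08, adjusted p = 0.0328, edgeR quasi-likelihood, adjusted by Benjamini-Hochberg over all genes tested, as are all adjusted p-values of fold changes here), and this call was near the threshold. It was lost without B16-GFP tumor 1, 4 or 10, without B16-IFNA4 tumor 1, 6 or 7 and without B16-IFNA9 tumor 1, 4 or 9, where the log2 fold change was 0.15 to 0.18 and the adjusted p up to 0.0694. Against B16-GFP the B16-IFNA9 tumors gave 0.11 (95% interval -0.04 to 0.27, adjusted p = 0.209), and against B16-IFNA4 they gave -0.07 (-0.23 to 0.08, adjusted p = 0.556).

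Cdkn1b (ENSMUSG00000003031.14, chr6:134920401-134925513, plus strand) encodes p27, whose protein is removed by the SCF ubiquitin ligase with Skp2 before S phase. It had a lowest, median and highest of 98.2, 149 and 163 CPM in B16-GFP, 118, 133 and 145 CPM in B16-IFNA4 and 116, 153 and 214 CPM in B16-IFNA9 tumors. The B16-IFNA4 tumors were the most alike, with a coefficient of variation of 7.92% against 15.6% and 17.2% in the other types. The B16-IFNA9 tumors lay 0.24 above the B16-IFNA4 tumors on the log2 scale (SE 0.09, 95% interval 0.05 to 0.43), with 6 of 10 above every B16-IFNA4 tumor, but the adjusted p was 0.0710. Against B16-GFP the log2 fold changes were -0.10 (-0.30 to 0.09) in B16-IFNA4 and 0.14 (-0.05 to 0.33) in B16-IFNA9 tumors.

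Cdkn1c (ENSMUSG00000037664.13, chr7:143458339-143461050, minus strand) encodes p57, an imprinted inhibitor expressed from the maternal copy. Its levels were low, from 3.39 to 7.33 CPM in B16-GFP with a median of 5.59, from 2.85 to 9.28 CPM in B16-IFNA4 with a median of 5.45 and from 2.81 to 7.80 CPM in B16-IFNA9 tumors with a median of 4.52. The types overlapped almost wholly, and the intervals left room for differences of up to 0.73 on the log2 scale. B16-GFP tumor 7 was the lowest of its type, and without it the B16-IFNA4 value was 0.0091 and the B16-IFNA9 value -0.33 (adjusted p = 0.163). The log2 fold changes were 0.05 (-0.35 to 0.45) for B16-IFNA4 and -0.27 (-0.68 to 0.13) for B16-IFNA9 against B16-GFP, and -0.32 (-0.73 to 0.08) for B16-IFNA9 against B16-IFNA4.

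**Figure D2:**
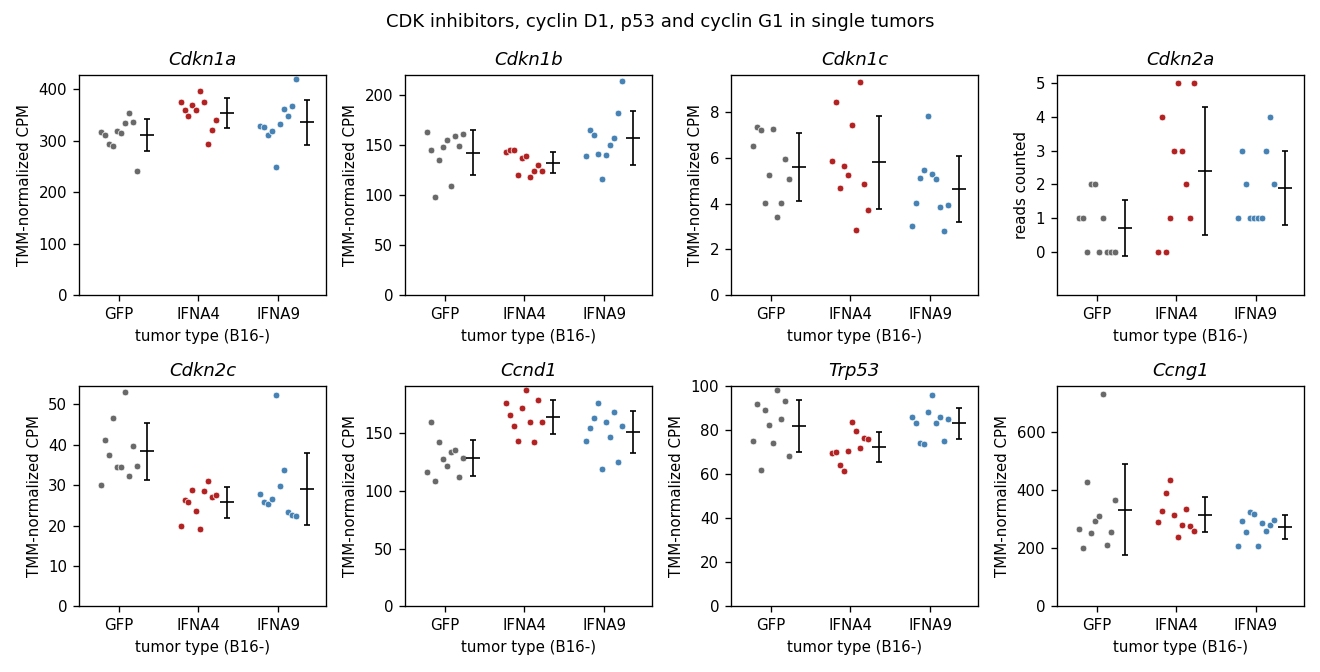
Level of each member in each of the 30 tumors by type, as TMM-normalized CPM (Cdkn2a as reads counted); bars give the mean and SD of 10 tumors. Cdkn2c sits lower and Ccnd1 higher in most interferon tumors, and the B16-GFP tumor at 730.5 CPM of Ccng1 is tumor 7.

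Of the INK4 inhibitors, Cdkn2c was lower in both interferon types than in B16-GFP tumors and Cdkn2a was close to undetected. Cdkn2c (ENSMUSG00000028551.14, chr4:109660876-109667189, minus strand) encodes p18, which blocks CDK4 and CDK6. Its lowest, median and highest levels were 29.9, 36.1 and 52.96 CPM in B16-GFP, 19.1, 26.7 and 31.1 CPM in B16-IFNA4 and 22.3, 26.2 and 52.3 CPM in B16-IFNA9 tumors. In both comparisons most tumors were below the control range, namely 9 of 10 B16-IFNA4 and 8 of 10 B16-IFNA9 tumors. The mean level was 0.673 times that of B16-GFP in B16-IFNA4 tumors (log2 fold change -0.57, SE 0.13, adjusted p = 0.000369). In B16-IFNA9 tumors it was 0.756 times that of B16-GFP (-0.40, SE 0.13, adjusted p = 0.00980). The 2 interferon types did not pass the test against each other (0.17, 95% interval -0.10 to 0.43, adjusted p = 0.411), and without B16-IFNA9 tumor 5 their difference was 0.058 (adjusted p = 0.758). Without B16-GFP tumor 7, the highest of its type, the log2 fold changes were -0.49 (adjusted p = 0.00123) and -0.34 (adjusted p = 0.0248). With library totals in place of TMM the B16-IFNA9 difference was -0.28 and no longer passed (adjusted p = 0.0597).

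Cdkn2a (ENSMUSG00000044303.6, chr4:89274471-89294653, minus strand) encodes both p16Ink4a and, from another first exon, p19Arf, which protects p53 from Mdm2. Counts per gene do not separate its transcripts. It was counted 0 to 2 times per B16-GFP tumor, with 5 tumors at 0, 0 to 5 times per B16-IFNA4 tumor, with 2 at 0, and 1 to 4 times per B16-IFNA9 tumor. The 10 tumors of a type summed to 7 counts in B16-GFP (95% Poisson interval 2.81 to 14.4), 24 in B16-IFNA4 (15.4 to 35.7) and 19 in B16-IFNA9 (11.4 to 29.7), and these intervals cover counting error only. Only 4 tumors, 3 of B16-IFNA4 and 1 of B16-IFNA9, had more than 3 counts, the limit that a count of 0 allows, so no fold change is given. In the mouse genome Cdkn2a lies 0.0116 Mb from Cdkn2b and 0.432 Mb from Ifna4 on chromosome 4. Cdkn2c lies on the same chromosome at a distance of 20.4 Mb. The IFNα4 of B16-IFNA4 tumors came from a retroviral vector, whose place in the genome is not given in the sources used here.

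The D cyclin Ccnd1 was the member that rose in both interferon types. Ccnd1 (ENSMUSG00000070348.5, chr7:144929931-144939925, minus strand) encodes cyclin D1, which links growth factor signals to CDK4 and CDK6. Its lowest, median and highest levels were 108, 128 and 159 CPM in B16-GFP, 142, 163 and 187 CPM in B16-IFNA4 and 119, 155 and 176 CPM in B16-IFNA9 tumors. All 10 B16-IFNA4 tumors lay above the B16-GFP median and 7 lay above every B16-GFP tumor, while the B16-IFNA9 tumors overlapped the control range more. Ccnd1 was 1.28-fold higher in B16-IFNA4 (log2 fold change 0.35, SE 0.08, adjusted p = 0.000198) and 1.18-fold higher in B16-IFNA9 tumors (0.24, SE 0.08, adjusted p = 0.00971) than in B16-GFP tumors. Both calls held in all 37 alternative fits, where the log2 fold change ranged from 0.32 to 0.43 for B16-IFNA4 and from 0.21 to 0.33 for B16-IFNA9. The difference between the 2 interferon types was -0.12 (95% interval -0.27 to 0.04, adjusted p = 0.315). Ccnd1 overlaps LTO1 on the opposite strand by 1771 bases, a gene with 144 to 538 counts per tumor, and the strand setting of the counting is not given in the sources used here.

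Trp53 was slightly lower in B16-IFNA4 tumors, and its target Ccng1 passed no test. Trp53 (ENSMUSG00000059552.13, chr11:69580359-69591873, plus strand) had a lowest, median and highest of 62.0, 83.8 and 98.4 CPM in B16-GFP, 61.6, 71.3 and 83.5 CPM in B16-IFNA4 and 73.7, 84.1 and 96.2 CPM in B16-IFNA9 tumors. All 10 B16-IFNA4 tumors were below the B16-GFP median, and their log2 fold change of -0.18 (SE 0.08) passed the test with an adjusted p of 0.0380. This call was lost without B16-GFP tumor 2, 4, 7, 8 or 9 and without B16-IFNA4 tumor 1, 2, 3, 4 or 5, and without B16-GFP tumor 7 the difference was -0.13 (adjusted p = 0.121). With library totals in place of TMM it was -0.10 (adjusted p = 0.295). The B16-IFNA9 tumors gave 0.02 against B16-GFP (95% interval -0.13 to 0.17) and 0.20 against B16-IFNA4 (0.04 to 0.35, adjusted p = 0.0656).

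Ccng1 (ENSMUSG00000020326.7, chr11:40748552-40755311, minus strand) encodes cyclin G1, which is induced by p53 and recruits a phosphatase to Mdm2. It had a lowest, median and highest of 200.4, 279.9 and 730.5 CPM in B16-GFP, 237, 302 and 434 CPM in B16-IFNA4 and 207, 283 and 323 CPM in B16-IFNA9 tumors. The highest value was that of B16-GFP tumor 7, and the other 9 B16-GFP tumors ranged from 200.4 to 429 CPM. No comparison passed the test, with log2 fold changes of -0.08 (-0.42 to 0.27) for B16-IFNA4 and -0.28 (-0.63 to 0.06) for B16-IFNA9 against B16-GFP, and -0.20 (-0.55 to 0.14) between the interferon types. Without tumor 7 the value for B16-IFNA4 turned to 0.15 (adjusted p = 0.314) and that for B16-IFNA9 became -0.07 (adjusted p = 0.679). The p53 site printed above for Ccng1 and that for Cdkn1a thus stood before genes whose log2 fold changes were between -0.28 and 0.19 against B16-GFP, or -0.07 and 0.22 without tumor 7.

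Between B16-IFNA4 and B16-GFP tumors, Ccnd1 and Cdkn1a rose, Cdkn2c and Trp53 fell, and Cdkn1b, Cdkn1c and Ccng1 did not pass the test. These 4 of 7 DEGs, genes with an adjusted p under 0.05, are 57.1%, beside 65.4% of all 15926 genes tested (31.3% higher and 34.1% lower). The median size of the log2 fold change was 0.18 over the 7 members and 0.50 over all genes, and the signed medians were -0.08 and 0.01. The tumors of the 2 types overlapped for every member, whereas 18.5% of all genes did not overlap. Without B16-GFP tumor 7, 3 members were DEGs, since Trp53 no longer passed.

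Between B16-IFNA9 and B16-GFP tumors, Ccnd1 rose and Cdkn2c fell, and the other 5 members did not pass the test. These 2 of 7 members are 28.6%, beside 55.7% of all genes tested (26.9% higher and 28.9% lower). The median size of the log2 fold change was 0.24 for the members and 0.40 for all genes, with no member free of overlap and 7.79% of all genes so. This comparison has the same 10 control tumors as the one before, so the 2 sets of values are not independent of each other. With library totals in place of TMM the median log2 fold change of all genes moved from 0.00 to 0.10, the DEGs of all genes split into 5052 higher and 3608 lower instead of 4281 and 4595, and the 2 members called were Ccnd1 and Cdkn1a (0.21, adjusted p = 0.0247), both higher.

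Between B16-IFNA9 and B16-IFNA4 tumors, 0 of 7 members were DEGs with edgeR and 0 with DESeq2, beside 17.8% of all genes tested (10.5% higher and 7.25% lower). Cdkn1b and Trp53 had an unadjusted p under 0.05 and were both higher in B16-IFNA9 tumors. Fitting the 20 tumors of these 2 types alone called both genes (adjusted p = 0.0444 and 0.0219), as did the expression filter of edgeR (0.0479 and 0.0358). The median size of the log2 fold change was 0.20 for the members and 0.19 for all genes, and 2.83% of all genes but no member had tumor types that did not overlap.

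**Figure D3:**
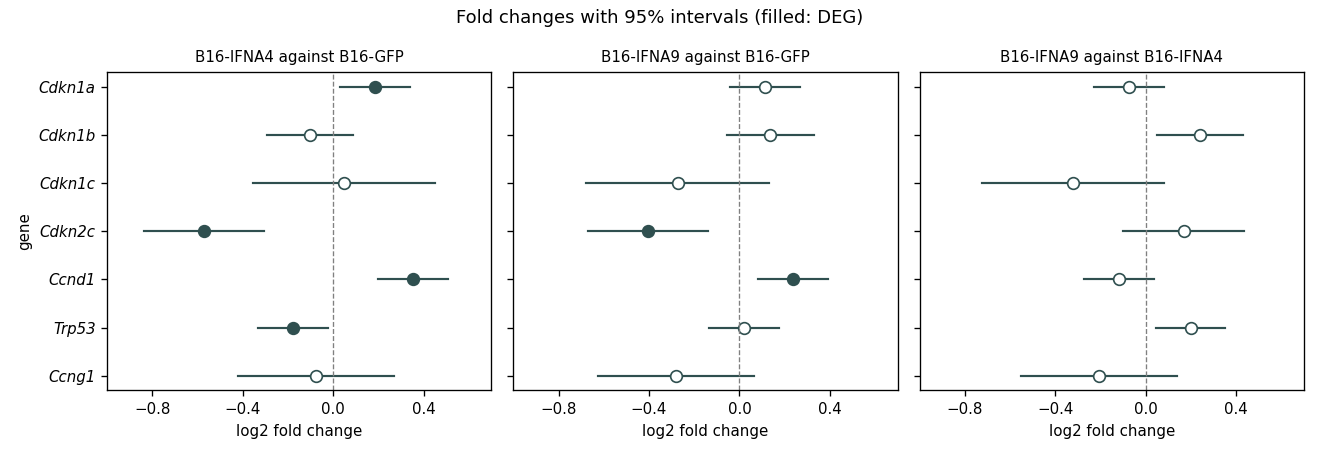
Log2 fold changes of the 7 members tested in the 3 comparisons with 95% intervals; filled points are DEGs. Cdkn2c lies left of 0 and Ccnd1 right of 0 against B16-GFP in both interferon types, and no point is filled between the interferon types.

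The genes that act with these regulators were DEGs about as often as all genes against B16-GFP, and fell more often than they rose. Of 103 other genes of the pathway that were tested, 73 were DEGs between B16-IFNA4 and B16-GFP (22 higher and 51 lower, 70.9%), 60 between B16-IFNA9 and B16-GFP (17 higher and 43 lower, 58.3%) and 41 between B16-IFNA9 and B16-IFNA4 (34 higher and 7 lower, 39.8%). The shares of all genes tested were 65.4%, 55.7% and 17.8%. With library totals the 59 DEGs of B16-IFNA9 against B16-GFP split into 27 higher and 32 lower. Without B16-GFP tumor 7 the 3 counts were 67, 59 and 46, and those over all genes went from 10412, 8876 and 2833 to 9941, 8473 and 3797. The lists were chosen with earlier results of these data known, and their counts are descriptions.

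Cdk4, the kinase that cyclin D1 activates and Cdkn2c blocks, was at 450.1 ± 132 CPM in B16-GFP, 182 ± 13.9 CPM in B16-IFNA4 and 249.9 ± 32.3 CPM in B16-IFNA9 tumors. The B16-IFNA4 tumors all lay below the B16-GFP tumors, with a log2 fold change of -1.31 (SE 0.11, adjusted p = 3.64e-11), and the B16-IFNA9 tumors at -0.85 (SE 0.11, adjusted p = 3.12e-07). Cdk6, the other D cyclin kinase, went the opposite way, at 0.63 (SE 0.09, adjusted p = 4.92e-07) and 0.37 (SE 0.09, adjusted p = 0.000806). Of the other D cyclins, Ccnd2 was at 515 ± 111 CPM in B16-GFP tumors and had log2 fold changes of 0.02 and -0.16, and Ccnd3 had 0.17 and 0.14, none of which passed the test. Cdkn2d, the fourth INK4 inhibitor gene, was lower in both interferon types at -0.52 (adjusted p = 0.000148) and -0.55 (adjusted p = 0.000121), as Cdkn2c was. The retinoblastoma family genes Rb1 (0.34 and 0.40) and Rbl2 (0.64 and 0.57) were higher in both, and Rbl1 was lower in B16-IFNA4 (-0.23, adjusted p = 0.0416), gave 0.22 in B16-IFNA9 (adjusted p = 0.0539) and differed between the 2 types (0.45, adjusted p = 0.00161).

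Among the cyclins, CDKs, E2F genes and proliferation markers, more genes fell than rose in both interferon types. Of 14 cyclins and CDKs tested, 1 rose and 10 fell in B16-IFNA4 and 1 rose and 7 fell in B16-IFNA9 tumors against B16-GFP. Those are 78.6% and 57.1% of the list, beside 65.4% and 55.7% of all genes tested. In B16-IFNA9 against B16-IFNA4 tumors 8 were higher and 1 was lower (64.3%, beside 17.8% of all genes tested). Cdk1, the mitotic kinase, fell by 2.12 and 1.57 on the log2 scale, its partner Ccnb1 fell by 2.01 and 1.15, and the S phase cyclin Ccna2 fell by 1.67 and 0.83. Of 9 E2F genes, 6 fell in each comparison, among them E2f1 at -0.996 and -0.629, and 1 rose in B16-IFNA4 tumors. The DEGs were 77.8% and 66.7% of the E2F list. With library totals 2 E2F genes fell and 1 rose in B16-IFNA9. All 17 proliferation markers fell in B16-IFNA4 and 15 of 17 in B16-IFNA9 tumors, with medians of -1.49 and -0.78, and Rrm2, the ribonucleotide reductase subunit made in S phase, fell by 2.40 and 1.56. Between the interferon types 15 of the 17 were higher in B16-IFNA9 tumors (88.2%, median 0.84), where 17.8% of all genes tested were DEGs. Of the 7 members tested 0 passed there in the fit used here, while Cdkn1b and Trp53 passed in some other fits.

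Of the genes that act on p27 or on cyclins, some rose and some fell. Skp2, which marks p27 protein for degradation, fell by 1.17 (adjusted p = 3.86e-09) and 0.64 (adjusted p = 9.05e-05), and its cofactor Cks1b fell by 1.56 and 1.17. Their ligase partner Cul1 had -0.39 (adjusted p = 0.000123) and -0.16 (adjusted p = 0.0891). The RNA of Cdkn1b did not pass the test in either comparison, and these counts do not measure p27 protein. Fbxo4, a ligase component described for cyclin D1, was higher in B16-IFNA4 tumors (0.41, adjusted p = 7.53e-05) and had 0.14 in B16-IFNA9 tumors (adjusted p = 0.138). Fbxo31, another such component, had 0.24 (adjusted p = 0.336) and was lower in B16-IFNA9 tumors (-0.54, adjusted p = 0.0370). Of the 10 genes of p27 and cyclin turnover tested, 3 rose and 4 fell in B16-IFNA4 and 1 rose and 4 fell in B16-IFNA9 tumors. Of the 10 other cell cycle inhibitors and brakes, 3 rose and 3 fell, and 2 rose and 2 fell. The DEGs made up 70.0% and 50.0% of the turnover genes and 60.0% and 40.0% of the brakes, beside 65.4% and 55.7% of all genes tested. With library totals these splits were 3 and 4 and 3 and 3 for turnover, and 3 and 1 in both comparisons for the brakes.

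**Figure D4:**
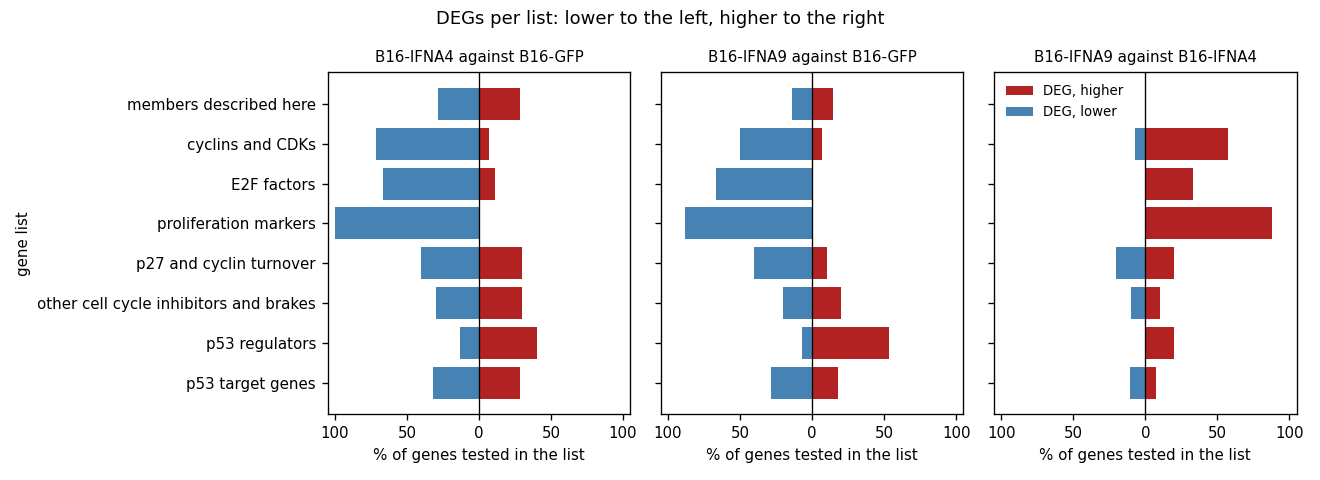
Share of the genes tested in each list that were DEGs, lower to the left and higher to the right, in the 3 comparisons. Proliferation markers were lower in 17 of 17 and 15 of 17 tests against B16-GFP, and the members have 2 and 2, 1 and 1, and 0 and 0 DEGs higher and lower.

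Around p53, Mdm2 was higher in both interferon types, beside log2 fold changes of -0.28 to 0.19 for Trp53, Cdkn1a and Ccng1 (-0.13 to 0.22 without B16-GFP tumor 7). Mdm2, which degrades p53 and is induced by it, was at 80.4 ± 15.6 CPM in B16-GFP, 130.0 ± 13.6 CPM in B16-IFNA4 and 116 ± 17.6 CPM in B16-IFNA9 tumors, with log2 fold changes of 0.69 (SE 0.10, adjusted p = 9.88e-07) and 0.53 (SE 0.10, adjusted p = 7.23e-05). The p53 relatives Trp73 (1.29 and 1.31) and Trp63 (0.71 and 0.62) were higher as well, and Trp63 is also a keratinocyte gene. Of 15 p53 regulators, 6 rose and 2 fell in B16-IFNA4 and 8 rose and 1 fell in B16-IFNA9 tumors (53.3% and 60.0%, beside 65.4% and 55.7% of all genes tested), and the checkpoint kinase Chek1 was among those that fell (-1.41 and -0.62).

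Of 28 p53 target genes, 8 rose and 9 fell in B16-IFNA4 and 5 rose and 8 fell in B16-IFNA9 tumors, with medians of 0.06 and -0.05 and no common direction. These are 60.7% and 46.4% of the list, beside 65.4% and 55.7% of all genes tested. Library totals turned the second split to 10 higher and 3 lower. Tap1, a peptide transporter gene that interferon also induces, rose by 2.22 and 2.10, and the repair gene Ddb2 rose by 1.27 and 1.31. Eda2r rose in B16-IFNA4 tumors (1.19, adjusted p = 2.31e-09) and had 0.28 in B16-IFNA9 tumors (adjusted p = 0.0573), and the 2 types differed (-0.91, adjusted p = 5.97e-06). Psrc1 fell by 0.98 in B16-IFNA4 tumors and was at -0.03 in B16-IFNA9 tumors.

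Against B16-GFP, markers of melanocytes, leukocytes and T and NK cells were DEGs more often than all genes, and macrophage markers less often. All 6 melanocyte markers tested fell in both interferon types, and their summed level ran from 10557 to 30866 CPM in B16-GFP, from 3704 to 6426 CPM in B16-IFNA4 and from 5445 to 13736 CPM in B16-IFNA9 tumors. All 6 leukocyte markers rose in both, with sums of 177 to 625, 967 to 1996 and 699.9 to 1392 CPM. Of 8 T and NK cell markers, 8 and 7 rose, with sums of 4.38 to 63.5, 89.5 to 216 and 63.7 to 157 CPM. Macrophage markers gave 1 higher and 2 lower of 7 in B16-IFNA4 and 1 higher and 0 lower in B16-IFNA9, with sums of 449 to 2007, 947 to 1618 and 936 to 1811 CPM. Those DEGs were 42.9% and 14.3% of the macrophage list, beside 65.4% and 55.7% of all genes tested. The B16-GFP sums without tumor 7 were 10557 to 18074 CPM for melanocyte, 313 to 625 for leukocyte, 11.1 to 63.5 for T and NK cell and 855 to 2007 CPM for macrophage markers. The part of these markers in the changes of Cdkn2c, Ccnd1, Cdkn1a and Trp53 was not tested.

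Markers of the tissue around the tumor were present too. Of 6 fibroblast markers, 2 rose in B16-IFNA4 and 1 in B16-IFNA9 tumors, with sums of 3021 to 12914, 7180 to 12727 and 7169 to 11951 CPM from B16-GFP to B16-IFNA9. Of 6 endothelial markers, 1 rose and 4 fell, and 0 rose and 3 fell, with sums of 169 to 437, 253 to 359 and 161 to 249 CPM. Of 6 keratinocyte markers, 3 rose and 0 fell, and 1 rose and 1 fell, with sums of 799 to 6091, 5052 to 7975 and 1485 to 6772 CPM. Of 8 skeletal muscle markers, 0 passed in B16-IFNA4 and 5 fell in B16-IFNA9 tumors, with sums of 3731 to 18602, 4535 to 16071 and 1857 to 13552 CPM. DEGs were 33.3% and 16.7% of the fibroblast, 83.3% and 50.0% of the endothelial and 50.0% and 33.3% of the keratinocyte markers. They were 0% and 62.5% of the muscle markers, beside 65.4% and 55.7% of all genes tested. Without tumor 7 the lowest B16-GFP sums were 5761 CPM for fibroblast, 237 for endothelial and 2991 CPM for keratinocyte markers. None of the 13 defining markers with a row was at 0 in any tumor, and their part in the members' values was not tested.

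Within a tumor type, no relation of a member with the melanocyte markers passed the adjusted test. Over the 10 tumors of each type, 21 relations between a member and the log2 summed melanocyte markers were computed (permutation tests, two-sided, 100000 resamples), and 0 had an adjusted p under 0.05. The strongest was that of Cdkn2c in B16-GFP tumors, with r = 0.78 (p = 0.00731, adjusted p = 0.154), rho = 0.68 (p = 0.0356, adjusted p = 0.413) and r = 0.78 without the 2 tumors farthest from the median, while Cdkn2c had r = -0.12 in B16-IFNA4 (permutation p = 0.739) and 0.018 in B16-IFNA9 tumors (p = 0.952), and r = 0.53 and 0.78 there without the 2 farthest tumors. Cdkn1a in B16-IFNA4 tumors had r = 0.69 (permutation p = 0.0278, adjusted p = 0.222) and rho = 0.58 (p = 0.0879, adjusted p = 0.615), with r = 0.33 without the 2 farthest. Cdkn1c in B16-GFP tumors had r = -0.64 (permutation p = 0.0345, adjusted p = 0.222) and rho = -0.45 (p = 0.194, adjusted p = 0.807), with r = -0.28 without them. Ccng1 in B16-GFP tumors had r = 0.70 (permutation p = 0.0424, adjusted p = 0.222) and rho = 0.25 (p = 0.490, adjusted p = 0.807), and without the 2 farthest tumors, 1 of them tumor 7, r was -0.22, so the relation rested on those tumors. Ccnd1 in B16-IFNA9 tumors had r = -0.34 (permutation p = 0.341, adjusted p = 0.715), rho = -0.67 (p = 0.0394, adjusted p = 0.413) and r = -0.92 without the 2 farthest tumors.

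**Figure D5:**
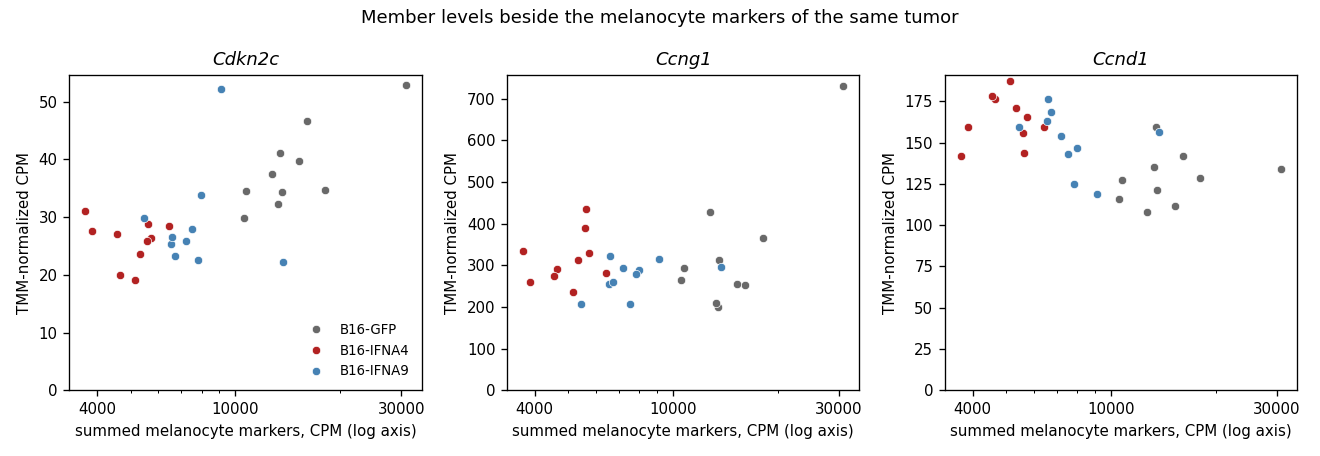
CPM of Cdkn2c, Ccng1 and Ccnd1 in each tumor against the summed CPM of 6 melanocyte markers in the same tumor on a log axis, coloured by type. B16-GFP tumor 7 lies farthest right at 30866 CPM with the highest Ccng1, and B16-IFNA9 tumor 5 is the interferon tumor at 52.3 CPM of Cdkn2c.

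The members also differed in how they varied from tumor to tumor. Among B16-IFNA9 tumors, tumor 5 had the highest Cdkn2c (52.3 CPM) and the lowest Cdkn1a (249 CPM) and Cdkn1b (116 CPM), and tumor 10 had the lowest Cdkn2c (22.3 CPM) and the highest Cdkn1a (419 CPM) and Cdkn1b (214 CPM). Their summed melanocyte markers were 9116 and 13736 CPM, the second highest and the highest of that type. Over the 30 tumors the highest level of a tested member was between 1.60 times (Trp53) and 3.65 times (Ccng1) its lowest. The value for Ccng1 rested on B16-GFP tumor 7 at 730.5 CPM, with the next highest tumor at 434 CPM, and Cdkn1c had 3.30 times.

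The genes whose log2 CPM ran most like a member's over the 30 tumors are given as a description, since the tumors share their type and scaling. Cdkn1b ran with Setd5 (r = 0.91, and 0.93 for deviations from the type means) and Clasp1 (0.87 and 0.86). Cdkn2c ran with Fah (0.88 and 0.78) and Dpp7 (0.87 and 0.76), Ccng1 with Cav2 (0.87 and 0.88) and Rcbtb2 (0.86 and 0.86), and Trp53 with Tmc8 (0.82 and 0.78) and Ncoa5 (0.81 and 0.79). The likeness was weaker for Ccnd1, with Gm37468 (0.81 and 0.59) and Peak1os (0.79 and 0.54), for Cdkn1a, with Gm11889 (0.71 and 0.62) and P4ha1 (0.69 and 0.64), and for Cdkn1c, with Fzd4 (0.66 and 0.63) and Slc9a2 (0.63 and 0.58).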

How the data were processed

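RNA of 30 whole tumors was read from 1 end over 50 bases after a stranded mRNA preparation. Per the submitters' processing notes, the authors used FastQC 0.11.3 and HISAT2 2.0.4 with the mm10 build, while the methods of the study name mm11. The authors deposited counts, whole numbers of reads per gene without normalization. The annotation release, the strand setting of the counting and the treatment of reads with several alignments are not given in the sources used here. Stretches of 50 bases shared with other transcripts on the same strand made up 2.14% of Cdkn1a and 3.88% of Trp53 and none of the other members. These shares leave out the genes on the opposite strand that overlap Cdkn1a, Cdkn1c and Ccnd1.

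The members, gene lists and tests were chosen with earlier results of these data known. Of 39676 identifiers, 39495 were in GENCODE M21 (GRCm38), which gave symbols and coordinates, and Rfwd2 was read as Cop1. Genes that averaged 10 counts or more were kept, scaled by TMM and compared in 1 quasi-likelihood fit of all 30 tumors with edgeR 4.0.16 in R 4.3.3. P-values were adjusted by Benjamini-Hochberg over all genes, and DEGs had an adjusted p under 0.05. Each SE is the size of the fold change over the square root of its F statistic. CPM used the fit's library sizes and log2 CPM a prior count of 2. The labels call the tumors biological replicates and give no batch. Alternatives were DESeq2 1.42.0, other scalings and filters, a replicate block, fits of 20 tumors and leaving out each tumor. The fit was tested on simulated counts of 1 dispersion (0.08) with 2-fold changes in B16-IFNA4, and against B16-GFP it recovered 184 of 199. Those changes were larger than any of the members', so the test does not cover changes of their size. Other genes named are the 4 largest DEGs of each pathway list in B16-IFNA4 against B16-GFP, the 2 largest in B16-IFNA9 against B16-IFNA4, 7 fixed genes, the defining markers and the 2 genes most like each member, of which the text gives a selection. Plots were drawn with matplotlib 3.10.9.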

Additional observations from a re-analysis of the deposited data

Results flagged for a closer look

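In 24 sets of 10 tumors (8 members in 3 types), the highest and lowest log2 CPM were compared with the rest of the set, and 2 values stood far from the others, where chance gives about 1.2 (1 set in 20). Cdkn1a in B16-GFP tumor 10 was the lowest of its type at a log2 CPM of 7.92 (242 CPM, with the next lowest tumor at 289.5 CPM), a gap of 0.474 of the range of the type. Cdkn2c in B16-IFNA9 tumor 5 was the highest of its type at a log2 CPM of 5.71 (52.3 CPM, with the next highest tumor at 33.9 CPM), a gap of 0.510 of the range. Without B16-GFP tumor 10 the log2 fold change of Cdkn1a between B16-IFNA4 and B16-GFP was 0.15 (adjusted p = 0.0694, edgeR), and without B16-IFNA9 tumor 5 that of Cdkn2c between B16-IFNA9 and B16-GFP was -0.53 (adjusted p = 0.000125, edgeR).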

How the results depend on the processing

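The fold changes of the members were recomputed in 7 other settings and in 30 fits that each left out 1 tumor. So were the counts of DEGs among the members, the listed pathway genes and all genes. Ccnd1 against B16-GFP in both interferon types and Cdkn2c in B16-IFNA4 kept their calls throughout. Cdkn1a in B16-IFNA4 lost its call with edgeR's expression filter (0.16, adjusted p = 0.0648), without a filter (0.20, adjusted p = 0.0507) and with the replicate block (0.19, adjusted p = 0.0604). Trp53 in B16-IFNA4 lost its call with DESeq2 size factors (-0.17, adjusted p = 0.05004), without a filter (-0.16, adjusted p = 0.0975) and in the fit of 20 tumors (-0.19, adjusted p = 0.0573). The cause was not tested.

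Members called between B16-IFNA4 and B16-GFP ranged from 2 to 4 when a tumor was left out, with 2 without B16-GFP tumor 4 or B16-IFNA4 tumor 1, where both Cdkn1a and Trp53 were lost. Members called between B16-IFNA9 and B16-IFNA4 were 2 with edgeR's expression filter and 2 in the fit of 20 tumors, and ranged from 0 to 2 when a tumor was left out. Both Cdkn1b and Trp53 were called without B16-GFP tumor 1 or 3 or B16-IFNA9 tumor 4, Cdkn1b alone without B16-IFNA9 tumor 1 or 5, and Trp53 alone without B16-IFNA4 tumor 6 or B16-IFNA9 tumor 9. Over all genes, that comparison had 4338 DEGs in the fit of 20 tumors and 2833 in the fit of 30. The sign of 3 results that had not passed the test turned. For Ccng1 in B16-IFNA4 it did so with library totals (0.049), and leaving out a tumor gave -0.14 to 0.15. For Cdkn1c in B16-IFNA4 leaving out a tumor gave -0.051 to 0.13, and for Trp53 in B16-IFNA9 it gave -0.019 to 0.058.

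Same-numbered tumors showed no common pattern of varying together. Their deviations from the type means correlated at -0.27 to 0.30, and 0, 1 or 1 of 10 tumors matched its own number best. The tumors were therefore not paired in the fit, though this check cannot show whether same-numbered tumors were handled together. A replicate block gave 3, 2 and 0 members and 10249, 8626 and 2535 DEGs over all genes in the 3 comparisons, and changed no member's call but that of Cdkn1a. Depth limits only Cdkn2a, at up to 5 counts.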
